A study of Mus musculus with 6 samples.

Results

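In the retinas of 12-month-old mice, 629 of 46375 cells (1.36%) carried no cell type. The 5 deposited types were photoreceptors (42359 cells), interneurons (2083), glia (942), mesenchymal cells (246) and retinal pigment epithelium (RPE, 116). The untyped cells were taken as those whose type entry was empty. The same 629 cells also lacked a position on the deposited map of the cells, and no cell had the position without the type or the type without the position. The cells came from 6 retinas of male C57BL/6J mice, of which 3 were Dram2 wt/wt and the other 3 were ko/ko. The ko/ko mice carry a constitutive CRISPR deletion of exon 4 of Dram2, which encodes a lysosomal membrane protein of the autophagy pathway. Replicate 3 of each genotype formed batch 1, and replicates 1 and 2 formed batch 2. The retinas were dissociated with papain and profiled by 10x Genomics 3′ sequencing, in which unique molecular identifiers (UMIs) count the captured RNA molecules. The labels name replicates, not animals, so p values measure the spread between these 6 samples, which may be technical.

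Rods are the most abundant cells of the mouse retina. They detect dim light through a cascade of the G protein transducin and a phosphodiesterase that acts on a cation channel. Cones serve daylight and colour with their own opsins, and bipolar, amacrine and horizontal cells, glia and vessels make up most of the rest. When retina is dissociated, rods release RNA into the suspension, so that droplets of every cell type hold some rod RNA.

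The untyped cells had the RNA of rods. A list of 15 rod genes took 10.9% of their UMIs, against 9.25% in photoreceptors and 1.03% to 1.27% in the other 4 classes. By retina, the rod list took 8.33%, 8.29% and 12.1% of the UMIs of untyped cells in wt/wt replicates 1 to 3 and 11.3%, 9.93% and 12.0% in ko/ko replicates 1 to 3. In each of the 6 retinas this share was above that of the photoreceptors of the same retina, which ran from 7.36% to 11.1%. The photoreceptor class also holds cones, and 1002 of its 42359 cells had 5 or more UMIs of a list of cone genes. The part of cones in its summed rod share was not tested, so the untyped cells were not compared with rods alone. By the gene sets described further on, the median rod share was above that of the photoreceptors in 6 of 6 retinas for the Ftl1 with Atp6v0c cells and in 5 for the Sept5 or Gp1bb cells. It was above in 2 retinas for Pcp4 with Igsf5, in 1 for Schip1 or Iqschfp, and in 0 for Pcp4 without Igsf5 and for the set with Gm3788. The types were made by clustering these same counts, so differences between untyped and typed cells are given as a description, without a test.

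Single rod genes were also far above their level in interneurons, and most were above that in photoreceptors. Gnat1, the rod transducin alpha subunit, had 7674 CPM (UMIs per 1000000 UMIs of the class) in untyped cells, 6136 in photoreceptors and 1083 in interneurons. Sag, the rod arrestin, had 11666 CPM in untyped cells and 10348 in photoreceptors. Rp1 and Pde6b went the other way, at 1638 and 1870 CPM in untyped cells and 1813 and 2007 in photoreceptors. The other genes of the list had more CPM in untyped cells. The photoreceptor values include cones, whose part in these differences was not tested. Since deeper cells show more genes, the chance of detection was also set at 500 UMIs per cell, which left out 309 untyped cells (49.1%) and 25689 photoreceptors (60.6%). At that depth Nrl, the transcription factor that sets rod identity, was detected in 70.1% of untyped cells, 64.7% of photoreceptors and 12.8% of interneurons. At the same depth Nr2e3, a nuclear receptor that acts with Nrl, was detected in 53.2% of untyped cells, 53.6% of photoreceptors and 8.04% of interneurons. Without thinning, Gnat1 was present in 84.6% of untyped cells at a median depth of 506 UMIs, and in 79.0% of interneurons at a median depth of 1844 UMIs. Its detection in unthinned cells was thus close in both classes, whereas its level was not.

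The rod share was also a property of almost every untyped cell. It lay under 3% in 11 untyped cells (1.75%) and in 2.17% of photoreceptors, compared with 94.6% of interneurons and 93.0% of glia. Of these 11 cells, 1 from ko/ko replicate 3 held 4954 UMIs, the most of any untyped cell, of which 83.9% came from globin genes. Photoreceptors included 25 cells with over 50% globin UMIs. Another of the 11, from wt/wt replicate 3, held 414 UMIs of which 51.0% were mitochondrial. A further cell, from ko/ko replicate 1, held 160 UMIs and had Pcp2 and Prkca, genes of rod bipolar cells, among its leading genes with 3 UMIs each. In these data Prkca was as high in photoreceptors (363 CPM) as in interneurons (369 CPM), while Pcp2 was at 69.5 and 2924 CPM.

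**Figure D1:**
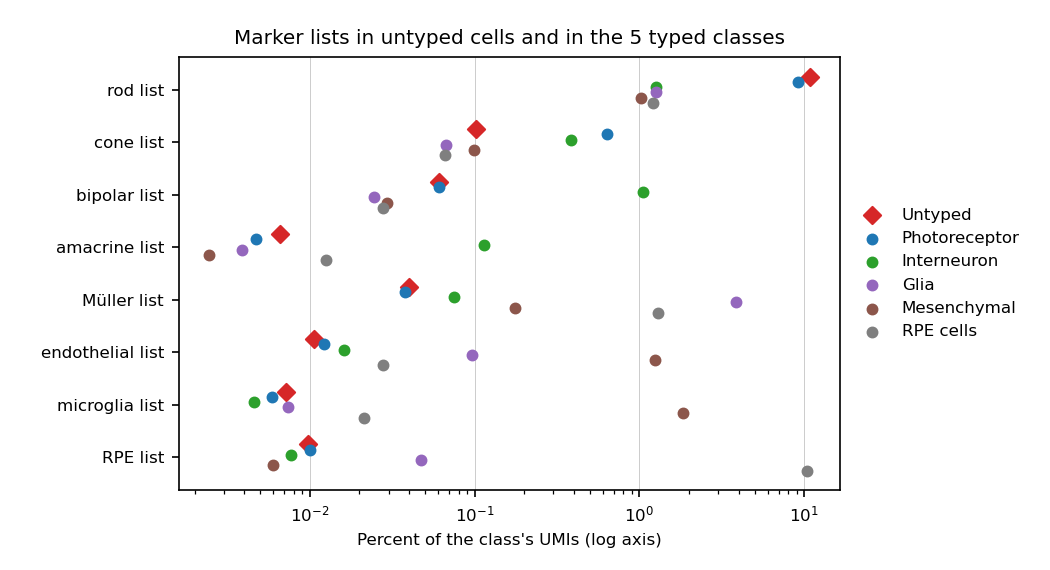
Percent of UMIs (horizontal log axis) that 8 lists of marker genes took in untyped cells (red diamonds) and in the 5 typed classes (circles), summed over the 6 retinas. For each list except the cone list the untyped cells sit beside the photoreceptors, at 10.9% and 9.25% for the rod list.

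Markers of other cell types were about as low in the untyped cells as in the photoreceptors, which should lack them. The bipolar list took 0.0609% of UMIs in untyped cells, 0.0610% in photoreceptors and 1.05% in interneurons. The Müller list took 0.0401% in untyped cells, 0.0379% in photoreceptors and was led in untyped cells by Glul, the glutamine synthetase of Müller glia, at 193 CPM against 16361 in glia. The amacrine list took 0.00660% in untyped cells, 0.00468% in photoreceptors and 0.113% in interneurons. Of its genes, the glycine transporter Slc6a9 had 12 UMIs in untyped cells, Calb2 had 7 (18.5 CPM against 7.86 in photoreceptors), Slc32a1 had 3, Tfap2b had 2, Gad1 had 1, and Gad2 and Tfap2a had 0. The endothelial list took 0.0106% in untyped cells and 0.0121% in photoreceptors, and Cdh5, the cadherin of endothelial junctions, was at 0 UMIs. The microglia list took 0.00712% in untyped cells and 0.00591% in photoreceptors. Of its genes C1qa, a complement subunit, had 5 UMIs in untyped cells (13.2 CPM against 7.48 in photoreceptors), P2ry12 had 3 UMIs (7.91 CPM against 0.852), and Cx3cr1 and Tmem119 had 0. All 5 C1qa UMIs came from wt/wt replicate 3, and 3 of them from 1 cell. The RPE list took 0.00976% in untyped cells and 0.0101% in photoreceptors, with Rpe65 and Lrat, enzymes of the visual cycle, at 0.

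Several further lists were nearly or fully empty. Of the horizontal list, 1 UMI (Calb1) was found, and of the ganglion list 2 UMIs, with Rbpms, Slc17a6, Pou4f1, Pou4f2 and Sncg at 0. The lymphocyte, lens, surface epithelium and cycling lists had no UMI in 379054, which allows a share of up to 0.000791% of UMIs. This limit covers counting error only. The pericyte list took 0.191% in untyped cells and 0.168% in photoreceptors, but 722 of its 725 UMIs in untyped cells came from Vtn. Rgs5 had 2 UMIs, and Kcnj8, Abcc9, Pdgfrb and Acta2 were at 0. By retina the ranges of the untyped cells and the photoreceptors overlapped for the bipolar, amacrine, Müller, endothelial, microglia and RPE lists.

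Cone RNA was lower in the untyped cells than over all photoreceptors. The cone list took 0.111%, 0.0842% and 0.127% of UMIs in wt/wt replicates 1 to 3 and 0.0981%, 0.0875% and 0.0907% in ko/ko replicates 1 to 3, and in photoreceptors 0.526% to 0.901%. The ranges did not overlap. The photoreceptor class holds the cones, and 1002 of 42359 photoreceptors and 3 of 629 untyped cells had 5 or more UMIs of the cone list. Opn1sw, the short-wavelength opsin, had 61 UMIs in untyped cells, or 161 CPM, against 1681 in photoreceptors. Its level in glia, which should lack it, was 132 CPM.

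Mixed droplets were looked for by counting, in each cell, the 21 lists of other types with at least 3 UMIs. The rod list was not among them, so droplets that held several rods and no other cell could not be seen this way. In untyped cells 122 (19.4%) passed for at least 1 list and 15 (2.38%) for at least 2, against 11.7% and 1.62% of photoreceptors. Vtn accounted for most of this, and without the pericyte list the shares were 6.68% in untyped cells and 4.63% in photoreceptors. The lists passed were the cone list in 27 untyped cells, the Müller list in 8, the bipolar list in 6, and the microglia, RPE and globin lists in 1 each. Cells of 500 UMIs or more (320 untyped cells and 16670 photoreceptors) were also thinned to 500 UMIs, and shallower cells were left out. Of the thinned cells, 11.9% of untyped cells and 13.0% of photoreceptors passed for at least 1 list. Without the pericyte list these shares were 3.75% and 7.07%. For at least 2 lists the thinned counts were 3 untyped cells (0.938%) and 56 photoreceptors (0.336%), and without the pericyte list 1 (0.313%) and 11 (0.0660%). The photoreceptor share includes cones, and 1633 photoreceptors (3.86%) passed for the cone list before thinning, against 4.29% of untyped cells. The part of cones in the thinned shares was not tested. The Müller list was passed by 1.27% of untyped cells and 0.590% of photoreceptors, and the bipolar list by 0.954% and 0.732%. By retina, the share before thinning was 5.75%, 16.7% and 33.3% in wt/wt replicates 1 to 3 and 12.2%, 13.6% and 30.3% in ko/ko replicates 1 to 3. The highest shares were in batch 1, where the cells were also deepest. The deposited cell names are running numbers, so barcodes shared between libraries could not be counted, and no doublets were removed.

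What the untyped cells shared was a UMI of a few particular genes. For each of the 3245 genes that at least 20 untyped cells carried, the carriers among untyped cells and photoreceptors were counted. Untyped cells made up 1.46% of these 42988 cells and a median of 1.80% of the carriers over the 3245 genes, with a 95th percentile of 2.48%. For Schip1, Iqschfp, Gp1bb and Sept5 they made up 97.3%, 97.3%, 97.2% and 96.0% of the carriers. Then followed Igsf5 (30.9%), Pcp4 (20.8%), Gm22133 (11.3%), Ftl1 (11.2%), Gm3788 (8.45%), the unnamed gene ENSMUSG00000107169 (7.69%), Atp6v0c (7.64%), Gm9844 (4.47%) and Gm13588 (4.31%). The next gene, Trib1, stood at 4.20%. These genes were chosen after their values were seen, so no test was made on them. The filter counted untyped carriers only, so a rare gene could enter the ranking only where it was often found in untyped cells.

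**Figure D2:**
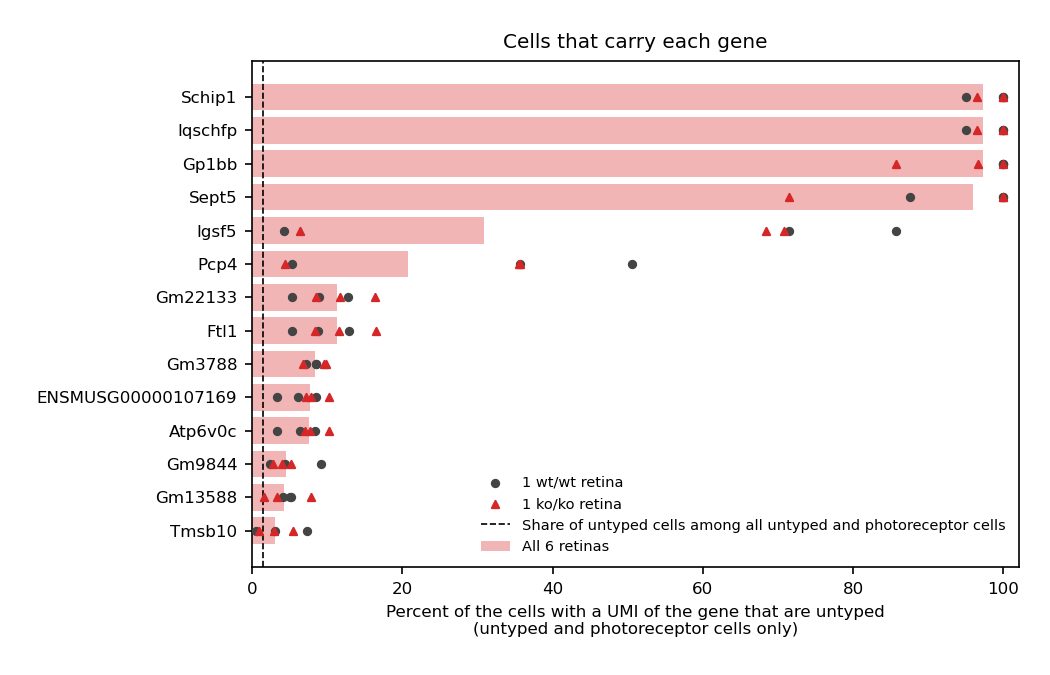
Percent of the cells with at least 1 UMI of a gene that were untyped (horizontal axis), among untyped cells and photoreceptors. Bars give all 6 retinas, circles single wt/wt and triangles single ko/ko retinas, and the dashed line marks the 1.46% of these cells that were untyped. Schip1, Iqschfp, Gp1bb and Sept5 stand apart at 96.0% to 97.3%.

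Grouped into 6 sets together with Tmsb10, these genes covered nearly every untyped cell. Tmsb10 stood lower in the ranking, at 3.08% of carriers, and was added after its values were seen. The sets were Ftl1 together with Atp6v0c, Schip1 or Iqschfp, Sept5 or Gp1bb, Pcp4 with Igsf5, Pcp4 without Igsf5, and any of Gm3788, Tmsb10, Gm13588 and Gm9844. Gm22133, which shares 109 exon bases with Ftl1 and was never found without it, was not used for the sets. Nor was ENSMUSG00000107169, which was found together with Atp6v0c in 5104 of the 5193 cells with either gene. Of the 629 untyped cells, 625 (99.4%) fell in at least 1 set, compared with 1626 photoreceptors (3.84%). The sets were common in the other typed classes. Only 342 of 2083 interneurons, 475 of 942 glia, 95 of 246 mesenchymal cells and 78 of 116 RPE cells fell in none. The sets thus set the untyped cells apart from photoreceptors, not from every typed class. 599 untyped cells fell in exactly 1 set, 26 in several and 4 in none. The sets were made on these cells, so this coverage describes them and supports nothing beyond them. In most cases the gene was present as a single UMI, for example in 71 of the 72 untyped cells with Schip1 and in 243 of the 265 with Atp6v0c.

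Ftl1 with Atp6v0c was the largest set, with 251 untyped cells (39.9%). Ftl1 encodes the light chain of ferritin, which stores iron (chromosome 7, 45457944 to 45459884, minus strand of GRCm38). Atp6v0c encodes a membrane subunit of the proton pump that acidifies lysosomes and synaptic vesicles (chromosome 17, 24163866 to 24169702, minus strand). Of the 273 untyped cells with either gene 251 had both, whereas of 5067 photoreceptors with either gene 182 had both. Ftl1 without Atp6v0c was found in 8 untyped cells and 1862 photoreceptors, and Atp6v0c without Ftl1 in 14 untyped cells and 3023 photoreceptors. Cells with both genes were also common in the other typed classes, with 33 RPE, 47 mesenchymal, 224 glial and 760 interneuron cells.

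The typed photoreceptors that had both genes were another kind of cell. They had a median of 2206 UMIs and 146.5 UMIs of the cone list, and 178 of the 182 had 5 or more cone UMIs, as opposed to 1 of the 251 untyped cells. With fewer than 5 cone UMIs, 250 untyped cells and 4 photoreceptors had both Ftl1 and Atp6v0c. Of these untyped and photoreceptor carriers 98.4% were untyped, the other typed classes not being counted. The shallowest photoreceptor with both genes had 823 UMIs, and 147 of the untyped cells lay below it. Up to 750 UMIs every untyped or photoreceptor cell with both genes was untyped, and above 1500 UMIs 15 were untyped and 167 were photoreceptors.

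The Ftl1 with Atp6v0c cells, which were chosen by a UMI of each of 2 genes and so favour deep cells, were deeper than the photoreceptors of their retina and poorer in Malat1, a long noncoding RNA kept in the nucleus. Their median depth by retina was 840, 735.5 and 832 UMIs in wt/wt replicates 1 to 3 and 642, 727.5 and 868 in ko/ko replicates 1 to 3, against 397 to 523 in photoreceptors. Their median Malat1 share was 7.46%, 13.3% and 4.37% in wt/wt replicates 1 to 3 and 5.77%, 7.70% and 3.44% in ko/ko replicates 1 to 3. In each of the 6 retinas this was under the photoreceptor median, which ran from 11.2% to 19.9%. Their rod list share was above that of the photoreceptors in each of the 6 retinas. The part of their greater depth in the Malat1 and rod differences was not tested.

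Schip1 and Iqschfp marked 72 untyped cells and 2 photoreceptors. Schip1 encodes a protein of axon initial segments and nodes (chromosome 3, 68064802 to 68626481, plus strand), and Iqschfp is a longer gene over the same end (67892232 to 68626466), sharing 1997 exon bases with it. The genes were detected together in 605 of 620 cells, with Iqschfp never found without Schip1, so they cannot be told apart by these reads. Schip1 was present in 20.9% of interneurons and 10.4% of glia, and in 0 of 116 RPE cells. The 72 cells had a median of 603 UMIs and a rod list share of 9.18%, and their bipolar list took 0.0847% of UMIs against 0.0610% in photoreceptors and 1.05% in interneurons. Their amacrine list took 0.00847% (4 UMIs) against 0.00468% in photoreceptors. Batch 1 held 46 of the 72 cells, and there the amacrine list took 0.00799% (wt/wt) and 0.00674% (ko/ko) in photoreceptors. In photoreceptors of batch 2 it took 0.00204% to 0.00350%.

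Sept5 and Gp1bb marked 81 untyped cells and 4 photoreceptors. Sept5 encodes a septin found at presynaptic terminals (chromosome 16, 18620502 to 18629954, minus strand), and Gp1bb a subunit of the platelet receptor for von Willebrand factor (18620317 to 18622403, minus strand). They share 1902 exon bases, and 568 of the 639 cells with either gene had both. Sept5 was present in 21.3% of interneurons and 0.00708% of photoreceptors. The untyped cells of the set had a median of 582 UMIs and a rod list share of 9.89%. Their amacrine list took 0.0156% of UMIs (8 UMIs) and their bipolar list 0.0489%, against 0.00468% and 0.0610% in photoreceptors. Batch 1 held 58 of the 81 cells, and its photoreceptors had 0.00799% (wt/wt) and 0.00674% (ko/ko) for the amacrine list. The cell rich in globin belonged to this set.

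Pcp4, a small protein of many neurons, marked 149 untyped cells and 568 photoreceptors (chromosome 16, 96467606 to 96525793, plus strand). Pcp4 was present in 37.2% of interneurons and 1.34% of photoreceptors, and Igsf5 in 34.4% and 0.406%. Igsf5, an immunoglobulin-family protein of cell junctions, lies upstream at 96361668 to 96422121 and was detected without Pcp4 in 3 of 1006 cells. In GENCODE M21 a second gene of the name Igsf5 runs on into Pcp4, with 243 shared exon bases, and the annotation behind the counts is not given in the sources used here. Of the cells with Pcp4 and Igsf5, 77 were untyped and 172 photoreceptors. Of those with Pcp4 and no Igsf5, 72 were untyped and 396 photoreceptors.

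For Pcp4 the share of untyped carriers differed between the batches. It was 50.6% and 35.7% in wt/wt replicates 1 and 2, 35.6% and 35.7% in ko/ko replicates 1 and 2, and 5.31% and 4.42% in the replicates 3 of wt/wt and ko/ko. The 4 retinas of batch 2 did not overlap with the 2 of batch 1, in either genotype. For Igsf5 the share in batch 2 lay between 68.4% and 85.7%, and in batch 1 it was 4.26% in wt/wt and 6.35% in ko/ko. The batches also differed in depth, whose part in this was not tested.

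The last set joined Tmsb10, which encodes the actin-binding thymosin beta 10 (chromosome 6, 72957347 to 72958748, minus strand), with Gm3788, Gm13588 and Gm9844. M21 calls Gm3788 and Gm13588 processed pseudogenes of 136 and 135 bases. At least 1 of these 4 genes was present in 99 untyped cells and 1104 photoreceptors. The untyped carriers were shallow, with a median of 219 UMIs, against 1721.5 in the typed carriers, of which 816 had 5 or more cone UMIs. Up to 250 UMIs 54 carriers were untyped and 36 were photoreceptors (60.0% untyped), falling to 5.13% untyped between 500 and 750 UMIs and 0.150% above 1500 UMIs. Tmsb10 itself was carried by 25 untyped cells and 788 photoreceptors.

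**Figure D3:**
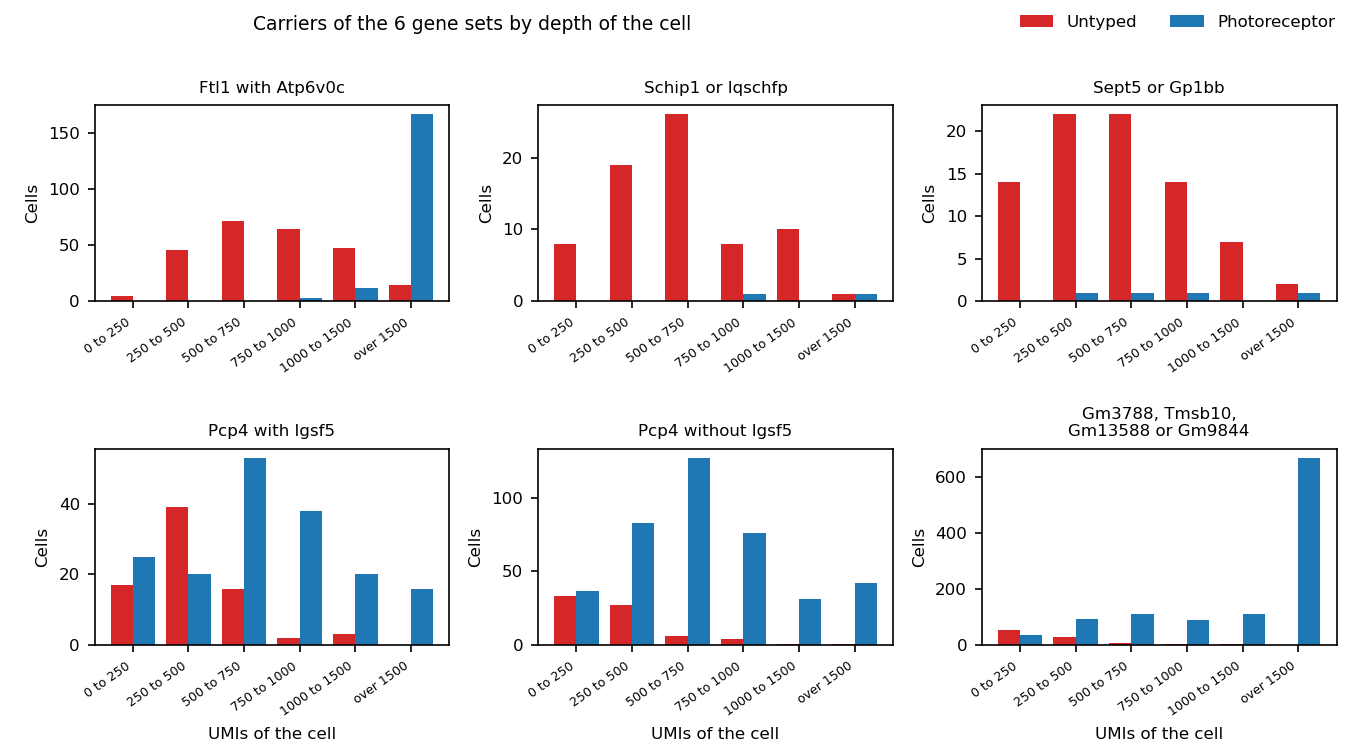
Number of untyped cells (red) and photoreceptors (blue) that carried each of the 6 gene sets (vertical axes, scaled per panel), by the UMIs of the cell. In the Ftl1 with Atp6v0c panel every cell up to 750 UMIs is untyped, and 167 of the 182 photoreceptors lie above 1500 UMIs.

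The sets were spread unevenly over the retinas. Ftl1 with Atp6v0c made up 13, 26 and 51 untyped cells in wt/wt replicates 1 to 3 and 77, 34 and 50 in ko/ko replicates 1 to 3. Schip1 or Iqschfp counted 46 untyped cells in the 2 retinas of batch 1 and 26 in the 4 of batch 2, and Sept5 or Gp1bb 58 and 23. In contrast, Pcp4 with Igsf5 counted 8 untyped cells in batch 1 and 69 in batch 2, and Pcp4 without Igsf5 11 and 61. Of all cells of a retina, the Ftl1 with Atp6v0c set averaged 0.416% ± 0.284 over the wt/wt retinas and 0.685% ± 0.354 over the ko/ko retinas (SD, n = 3 per genotype), and the genotypes overlapped.

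**Figure D4:**
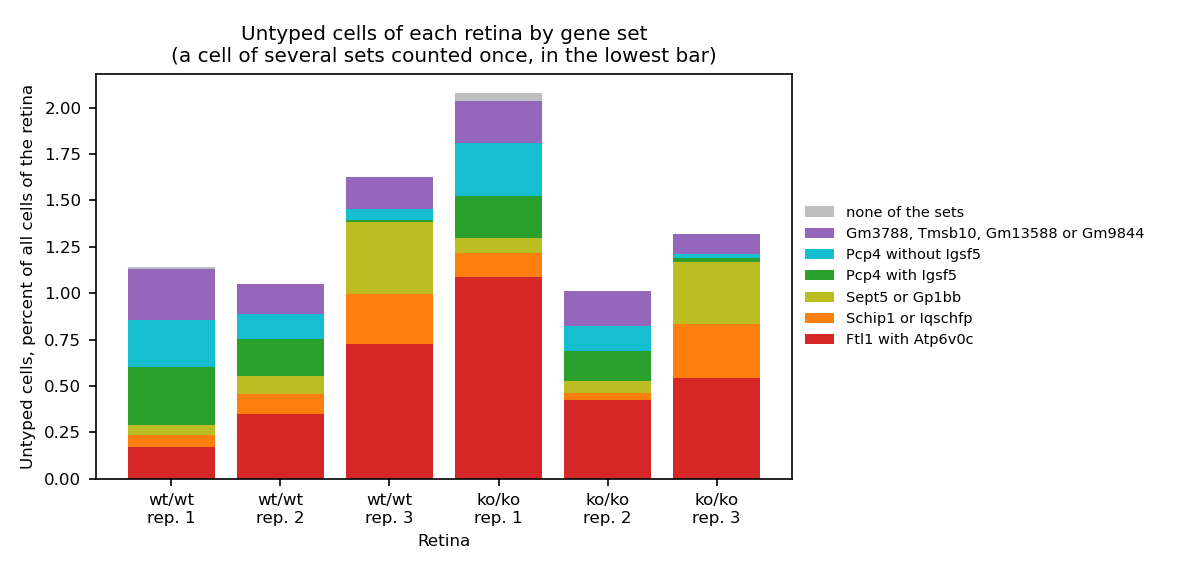
Untyped cells as a percent of all cells of each retina (vertical axis), divided by gene set, with a cell of several sets counted once. The 2 retinas of batch 1 (replicates 3) hold most of the Schip1 and Sept5 cells and few of the Pcp4 cells, and ko/ko replicate 1 has the highest bar at 2.08%.

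Clustered on their own, the untyped cells formed some clusters that differed in batch or mitochondrial RNA and 2 led by genes of the sets. Ftl1 with Atp6v0c cells were the most numerous set in 6 of the 8 clusters, and neither gene was among the leading genes of any. Of 8 clusters, of 39 to 117 cells, a pair with mt-Atp6 and other mitochondrial genes in the lead held 65 and 80 cells of batch 1 and 4 and 6 of batch 2. A cluster of 117 cells was led by Gm3788, Gm13588, Gm9844 and Tmsb10, and a cluster of 93 cells by Pcp4 and Igsf5, with 90 of them from batch 2. A cluster of 53 cells was led by Gm2000 and ribosomal genes and pseudogenes such as Rpl39 and Rps27, with a median Malat1 share of 0.493%. In the mitochondrial cluster of 86 cells this share was 0.747%, with a median rod list share of 15.5% and a median mitochondrial share of 4.41%. Among the 10 leading genes of each cluster the only gene of a cell type list was Pde6h, the cone phosphodiesterase inhibitor, in a cluster of 66 cells whose rod list share was 8.53%. No cluster had 3 or more genes of a cell type list among its leading genes, and none was named.

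The comparison of ko/ko with wt/wt asks whether the number or the make-up of untyped cells changed with the loss of Dram2. They were 1.14%, 1.05% and 1.63% of the cells in wt/wt replicates 1 to 3 (87, 78 and 114 cells) and 2.08%, 1.01% and 1.32% in ko/ko replicates 1 to 3 (147, 81 and 122 cells). The highest and the lowest value were both ko/ko, and the groups overlapped. The means were 1.27% ± 0.309 and 1.47% ± 0.548 (SD, n = 3 each; two-sided exact permutation test, p = 0.70). The exact binomial 95% interval was 1.76% to 2.44% in ko/ko replicate 1 and 0.804% to 1.26% in ko/ko replicate 2, for counting error only. Within batch 2 ko/ko was higher by 0.448 percentage points, and within batch 1 the difference was -0.305.

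Depth and the share of mitochondrial RNA followed the batch. Median depth per untyped cell was 358, 485 and 719 UMIs in wt/wt replicates 1 to 3 and 478, 454 and 675.5 in ko/ko replicates 1 to 3 (exact permutation test, n = 3 each, p = 1.0). Both retinas of batch 1 were deeper than the 4 of batch 2. Mitochondrial genes took 0.442%, 0.384% and 3.29% of UMIs in wt/wt and 0.851%, 0.676% and 2.71% in ko/ko (p = 1.0 by the same exact test). Photoreceptors of the same retinas had 0.361% to 0.698% in batch 2, and 3.24% and 2.71% in batch 1. Over 10% mitochondrial UMIs were seen in 5 untyped cells (0.795%) and 1.02% of photoreceptors.

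Malat1 took 16.9%, 16.6% and 7.08% of UMIs in the untyped cells of wt/wt replicates 1 to 3 and 9.42%, 11.8% and 7.43% in those of ko/ko replicates 1 to 3. In batch 2 both ko/ko retinas were below both wt/wt retinas, by a mean difference of -6.13 percentage points, and in batch 1 the difference was 0.350. Over all 6 retinas the genotypes overlapped (exact permutation test, n = 3 each, p = 0.40), and in photoreceptors Malat1 took 12.0% and 14.9% in ko/ko and 17.7% and 17.1% in wt/wt of batch 2. For the rod list the mean was 9.58% ± 2.20 in wt/wt and 11.1% ± 1.04 in ko/ko (n = 3 each, exact p = 0.40). Within batch 2 the rod list difference was 2.31 percentage points, and within batch 1 it was -0.154. After adjustment over the 5 exact tests every p was 1.0, and 3 against 3 retinas cannot give a p below 0.10. By the median over cells, Malat1 in wt/wt replicate 1 was 20% in untyped cells and 19.9% in photoreceptors. By gene set, the median Malat1 share was below that of the photoreceptors in 6 of 6 retinas for Ftl1 with Atp6v0c. It was below in 4 retinas for Sept5 or Gp1bb, in 3 for Schip1 or Iqschfp, in 2 for each Pcp4 set and in 0 for the set with Gm3788.

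**Figure D5:**
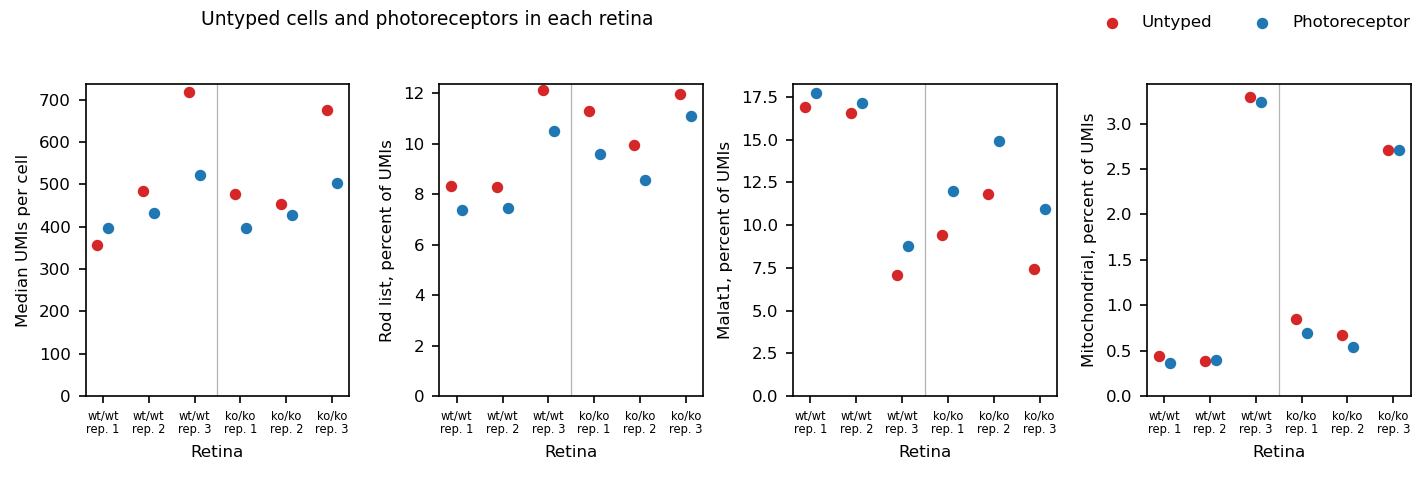
Median UMIs per cell and the percent of UMIs on the rod list, Malat1 and mitochondrial genes (vertical axes) in untyped cells (red) and photoreceptors (blue) of each retina. By UMIs summed over the cells, the rod list is higher and Malat1 lower in untyped cells than in photoreceptors in each of the 6 retinas. The photoreceptors include cones. The mitochondrial share is highest in both replicates 3.

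Dram2 itself was sparse. In untyped cells it had 0, 0 and 2 UMIs in wt/wt replicates 1 to 3 and 2, 2 and 4 UMIs in ko/ko replicates 1 to 3. The 3′ end that the assay counts lies outside the deleted exon, so these counts cannot check the genotype labels.

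No gene passed the test between ko/ko and wt/wt in the untyped cells. UMIs were summed per retina and tested with edgeR's quasi-likelihood test, in which 0 of 917 genes passed an adjusted p under 0.05 (0% called) and 11 had an unadjusted p under 0.05. limma-voom called 0 genes with 15 at an unadjusted p under 0.05, and DESeq2 called 0 with 2. With the batch as a covariate edgeR called 0 with 44, and limma-voom 0 with 51. With the replicate number as a block edgeR called 2 genes, and without wt/wt replicate 3 it called 1. Without the filter on low counts it called 7 of 15084 genes, as described at the end. In bulk sums of this kind fewer cells of a type and less RNA per cell cannot be told apart. All 15 rod genes were tested and 0 passed, with a median log2 fold change of 0.08 against 0.0032 over all genes tested. Of the 10 cone genes 4 were tested and 0 passed.

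The genes with the smallest p in each direction rest on few UMIs. Ndufa3, which encodes a subunit of respiratory complex I, had 132, 211 and 343 CPM in wt/wt replicates 1 to 3 and 517, 328 and 402 CPM in ko/ko replicates 1 to 3, from 5 to 39 UMIs per retina. The genotypes overlapped, and the log2 fold change was 0.71 ± 0.35 (SE; edgeR adjusted p = 0.999). It was 1.12 without wt/wt replicate 3 (edgeR adjusted p = 0.228). Gm2000, Grcc10 and Gm45234, also among the smallest p of the genes with positive values, had log2 fold changes from 0.63 to 1.05. The highest, 1.05 for Gm2000, was 0.23 without ko/ko replicate 1, which held 57 of its UMIs. Grcc10 and Gm45234 had nearly the same UMIs in every retina.

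In the other direction, 3222401L13Rik had 424, 515 and 199 CPM in wt/wt replicates 1 to 3 and 66.3, 262 and 57.4 CPM in ko/ko replicates 1 to 3, with a log2 fold change of -1.77 ± 0.60. Its genotypes overlapped. Mab21l1, a developmental regulator of the eye, had 318, 351 and 321 CPM in wt/wt and 212, 175 and 184 CPM in ko/ko, without overlap, at a log2 fold change of -0.87 ± 0.33. Rims2, a protein of the synaptic active zone, Casz1, a zinc finger factor of retinal development, and Clcn3, a chloride exchanger of endosomes, had -1.46, -0.81 and -1.05. For Malat1 the log2 fold change was -0.64 ± 0.32, and it was -0.34 when wt/wt replicate 1 was left out and -0.97 when wt/wt replicate 3 was (edgeR adjusted p = 0.018). With all 6 retinas and genotype as the only term, the edgeR adjusted p was 0.999 for each of these genes. With the replicate number as a block, it was 0.0059 for 3222401L13Rik and 0.0025 for Malat1.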

How the data were processed

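The authors aligned the reads to the mouse genome GRCm38 (mm10), counting exons, with Cell Ranger (version 3.1.0 in the submitters' processing notes) and deposited raw UMI counts of 52636 genes, not normalized, with the type and map position of each cell from Seurat clusters integrated over the batch. No doublet step is named. GENCODE M21 gave positions and named 52403 genes, and 233 kept their identifier. The untyped cells held 37754 to 90284 UMIs per retina.

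The cells and the marker lists (24 lists, 182 genes) were chosen with earlier results of these data known. Genes named are the defining genes of the lists, the leading genes of the clusters, Dram2, Malat1 and the 5 genes with the smallest p in each direction. A few genes among these are left out of the text. The genes whose carriers were untyped were added after their values were seen. Lists by name are marker genes of that type, and CPM scale a gene's UMIs to 1000000 UMIs of the class or retina. Shares and medians per retina were set against each other by exact permutation (two-sided) with Benjamini-Hochberg adjustment over 5 tests. Summed counts were tested with edgeR (filterByExpr, TMM, glmQLFTest) with genotype as the only term. The check for repeated libraries gave a lowest chi-square per degree of freedom of 1.18 (wt/wt replicates 1 and 2, 504 genes, p = 0.0029). The next lowest was 2.14 (ko/ko replicates 1 and 2). This check measures counting noise only and cannot show that 2 libraries come from separate samples. Each retina was counted once, by its label. Detection at 500 UMIs is the hypergeometric expectation. Clusters are leiden clusters (2000 variable genes, 20 components, 15 neighbours, resolution 1). The test was checked on simulated counts. Alternatives were other tools, normalization, no filter, a fold change above 2, batch and replicate terms, a stricter choice of cells (500 UMIs or more, mitochondrial share up to 10%), each retina left out and, chosen after seeing the data, removal of the cell rich in globin.

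Tools were DESeq2 1.42.0, limma 3.58.1 and edgeR 4.0.16 in R 4.3.3, and scanpy 1.11.5, igraph 0.11.9 and scipy 1.17.1 in Python 3.11.15.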

Additional observations from a re-analysis of the deposited data

How the results depend on the processing

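The small number of cells per retina limits these comparisons, since 87 cells or fewer stood behind 3 of the 6 retinas and most genes had too few UMIs to test. The count of genes that differed between ko/ko and wt/wt stayed at 0 in 13 of 16 alternatives. Of these, the added demand for a fold change above 2 could give no other count. Without the filter on low counts edgeR called 7 of 15084 genes, each a globin gene or pseudogene with most of its UMIs in ko/ko replicate 3, the retina of the cell rich in globin. With the replicate number as a block it called 2 genes, Malat1 (log2 fold change -0.53, adjusted p = 0.0025) and 3222401L13Rik (-1.79, adjusted p = 0.0059), both lower in ko/ko. Deviations of same-numbered retinas correlated at 0.010, 0.338 and 0.514, and those of unlike-numbered retinas from -0.488 to 0.305. The highest value, 0.514, was that of the replicates 3, which also share batch 1. These correlations cannot tell pairing by number from the batch. The main fit did not take the numbers as pairs, and the blocked fit stands beside it as an alternative. For the 5 shares and medians the blocked difference equals the unblocked difference by construction (0.197 percentage points for the share of untyped cells), so it shows nothing of their stability. With each retina left out in turn the count ran from 0 to 1, the 1 being Malat1 without wt/wt replicate 3 (-0.97, adjusted p = 0.018). The adjusted p of Malat1 ran up to 1.0 over its alternatives.

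The difference in the share of untyped cells (ko/ko minus wt/wt, percentage points) ran from -0.107 to 0.426 with each retina left out, and its sign turned without ko/ko replicate 1 (-0.107). That in median UMIs ran from -66.2 to 114, with a turned sign without wt/wt replicate 1 (-66.2), wt/wt replicate 2 (-2.67) and ko/ko replicate 3 (-54.7). That in the mitochondrial share ran from -0.609 to 1.00, turned without wt/wt replicate 1 (-0.424), wt/wt replicate 2 (-0.453) and ko/ko replicate 3 (-0.609). The differences in Malat1 (-7.19 to -2.27) and the rod list (0.841 to 2.76) kept their sign with each retina left out, though not within batch 1. The share of untyped cells with a list of another type was 41.2% at a minimum of 2 UMIs and 4.29% at 5. At resolution 0.5 there were 3 clusters and at resolution 2 there were 15. The causes were not tested.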
